A study of Mus musculus with 4 samples.

Results

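Among the 2454 nuclear peaks of a Flag ChIP-seq list from mouse embryonic stem cells on their way to motor neurons, 550 had their maximum inside an intron, far from any promoter. A peak belonged to this set when its maximum lay in an annotated gene body, outside every exon, and over 10 kb but at most 100 kb from the nearest annotated transcription start (GENCODE release M1 on mm9). The 550 peaks lay in 507 separate bound regions and made up 22.4% of the list (20.8 to 24.1%, 95% exact binomial interval). The choice used position alone, so peak strength and sequence were free to vary.

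The cells were iMN-ESCs, a stable line made from A172LoxP embryonic stem cells, in which doxycycline (Dox) switches on a single Flag-tagged protein that joins Isl1 to Lhx3. Embryoid bodies of this line were given 0.5 µM retinoic acid on its own for 2 days, and then retinoic acid for 4 more days with Dox at 2 µg/mL (2 libraries) or without Dox (2 libraries). All 4 libraries carried the transgene, were treated with LIF at 1000 units/mL for the last 16 hours, and were precipitated with anti-Flag antibody. The protein mapped was therefore an induced fusion and not native Isl1 or Lhx3, and whether the numbered libraries came from separate cultures is not stated in the labels. The deposited list gives each peak 1 ChIP score, 1 background score and, per region, 1 count of ChIP tags, with no value per library. No difference with and without Dox, and no spread between libraries, could be measured, and the depth of each library is unknown. Expression was not measured in these files, so the labelled cell type could not be checked against its markers.

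Isl1 and Lhx3 belong to the LIM-homeodomain family and act together, bridged by the cofactor NLI, to specify spinal motor neurons. Homeodomains bind short AT-rich DNA, with the half-site TAAT (ATTA on the other strand) at the centre, and TAATTA is a palindrome in which a half-site on each strand overlaps. Introns of long genes often hold enhancers, which can act on the gene that contains them or on another gene. LIF signals through JAK kinases to STAT3, which binds an inverted repeat of TTC and GAA.

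The first 4 sequences show what a strong intronic peak with the full core looks like. They are among the strongest peaks that hold TAATTA within the 200 bp centred on the maximum. Lmo7 at 117.50 and Sel1l3 at 115.09, not shown in this group, scored between Pdzd2 and Macf1. All 4 are read on the plus strand of mm9, with the core in capitals. Zmat4 encodes a zinc-finger protein, Cdh1 encodes E-cadherin, Pdzd2 a PDZ-domain protein and Macf1 a linker of microtubules to actin.
Zmat4, chr8:24864574-24864633: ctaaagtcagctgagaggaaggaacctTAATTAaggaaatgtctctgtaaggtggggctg
Cdh1, chr8:109145551-109145610: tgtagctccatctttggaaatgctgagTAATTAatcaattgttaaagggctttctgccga
Pdzd2, chr15:12401672-12401731: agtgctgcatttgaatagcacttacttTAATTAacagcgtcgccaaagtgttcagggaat
Macf1, chr4:123320154-123320213: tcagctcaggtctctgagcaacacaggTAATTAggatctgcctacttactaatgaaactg
The centre of the core lay 28.5 bp before the maximum in Zmat4, 60.5 bp before it in Cdh1, 46.5 bp after it in Pdzd2 and 18.5 bp after it in Macf1.

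The next 5 sequences are shown because the strongest intronic peaks of all lacked TAATTA. The first 4 are the strongest peaks without the core, and the fifth is the stronger of 2 maxima in Chat, the gene for choline acetyltransferase, which makes the motor neuron transmitter. Capitals mark the half-site nearest to the maximum, again on the plus strand of mm9.
Wwp2, chr8:110043843-110043902: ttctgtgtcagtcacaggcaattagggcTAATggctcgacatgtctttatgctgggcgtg
Ankrd55, chr13:113166217-113166276: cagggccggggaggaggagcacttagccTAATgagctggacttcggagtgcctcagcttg
Slc35f3, chr8:128869154-128869213: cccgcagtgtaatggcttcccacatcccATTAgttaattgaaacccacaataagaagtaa
Dmxl2, chr9:54247010-54247069: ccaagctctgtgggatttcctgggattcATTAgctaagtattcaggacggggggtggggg
Chat, chr14:33256837-33256896: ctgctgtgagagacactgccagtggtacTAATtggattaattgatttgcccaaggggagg
The stretches from Wwp2 and Slc35f3 each also held 1 match to CAATTA (or TAATTG, its other strand), a word that differs from the core at an outer base, and the Chat stretch held 2. The half-site in capitals lay 2.5 bp from the maximum in Wwp2, 3.5 bp in Slc35f3, 0.5 bp in Chat, 28.5 bp in Ankrd55 and 27.5 bp in Dmxl2.

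The last group shows pairs of half-sites at fixed spacings. In Dmrt1 and Sh3bp4, capitals mark ATTA and TAAT facing each other with 3 bases between. In Lmo7, capitals mark 2 ATTA half-sites in the same direction with 5 bases between, and there the second half-site belongs to a full TAATTA. Dmrt1 encodes a DM-domain transcription factor of the gonad.
Dmrt1, chr19:25598708-25598768: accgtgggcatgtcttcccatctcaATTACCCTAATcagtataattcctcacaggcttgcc
Sh3bp4, chr1:91029714-91029774: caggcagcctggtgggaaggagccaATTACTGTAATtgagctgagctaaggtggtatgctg
Lmo7, chr14:102187241-102187301: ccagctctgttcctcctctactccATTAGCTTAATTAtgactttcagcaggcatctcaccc
These are among the strongest peaks with such pairs, all on the plus strand of mm9, with ChIP scores of 126.33 in Dmrt1, 119.10 in Sh3bp4 and 117.50 in Lmo7.

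The strongest intronic peak lay in intron 8 of Wwp2, which encodes a HECT-type ubiquitin ligase. Its ChIP score was 263.37 over background at 0.310, from 176 tags (151 to 204, exact 95% Poisson limits), and it had rank 3 in the whole list. The second lay in intron 10 of Ankrd55 and scored 254.27 over background at 1.70, from 160 tags (136 to 187). Slc35f3, a member of the solute carrier family, held the next at 218.67 over a background score of 3.30. These 3 maxima lay 25.1 kb, 57.6 kb and 46.7 kb from the nearest start, which in each case was a start of the host gene itself. The next was a double peak in intron 25 of Dmxl2, which encodes a synaptic vesicle protein, with maxima of 184.95 and 176.11 in 1 region of 166 tags. Zmat4 followed at 178.52 over a background score of 3.43. Nfasc, which encodes an adhesion molecule of the axon initial segment and nodes of Ranvier, scored 169.96 over a background score of 0. The list of the 12 strongest closed with 4933426M11Rik at 164.34, Prtg at 157.65, Plekha7 at 156.84, Zfp704 at 141.59 and Cdh1 at 139.45. Prtg encodes an immunoglobulin-family cell surface protein, Plekha7 an adherens junction protein and Zfp704 a zinc-finger protein. Of these 12, the peak in Prtg was nearer to the start of another gene, Pygo1, at 52.7 kb. TAATTA was present in the windows of Zmat4, with 2 copies, and of Cdh1, with 1, and in none of the other 10.

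**Figure D1:**
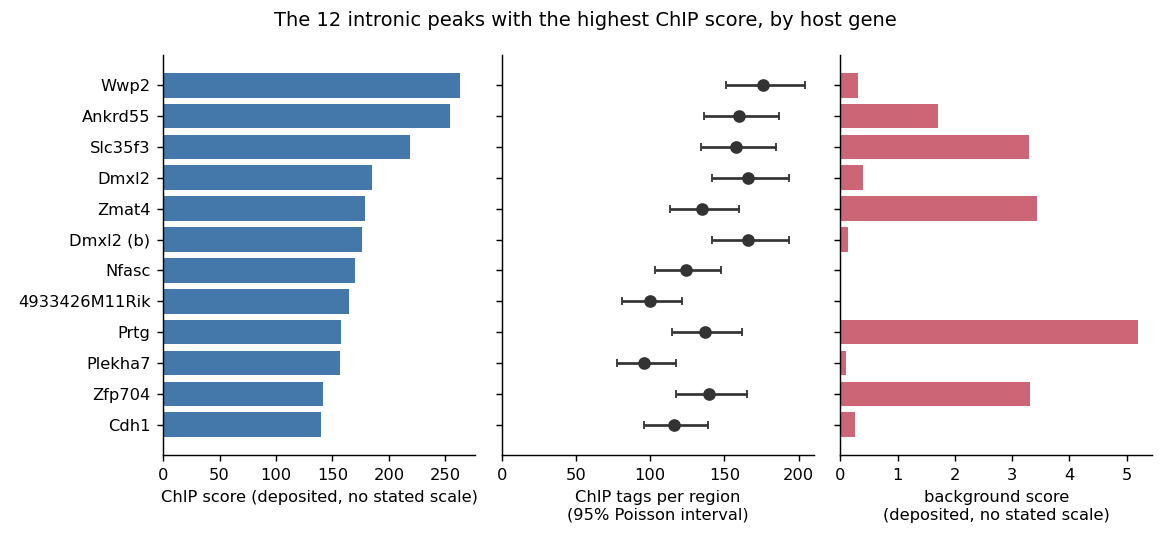
ChIP score, ChIP tags of the region with 95% Poisson intervals, and background score of the 12 intronic peaks with the highest ChIP score, 1 row per peak named by its host gene ("b" is the second maximum of Dmxl2). ChIP scores run from 139.45 in Cdh1 to 263.37 in Wwp2, while the highest background score among them is 5.19, in Prtg.

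Over all 550 intronic peaks, ChIP scores ran from 29.98 to 263.37, with a median of 40.15 (38.81 to 41.75, 95% order-statistic interval) and quartiles of 33.72 and 52.93. The other 1904 peaks had a median of 41.22 (40.42 to 42.02). A randomly chosen intronic peak outscored another peak with a probability of 0.486 (0.459 to 0.514, 95% DeLong interval). Against the 652 intergenic peaks at the same distance from starts the probability was 0.483 (0.451 to 0.516), and against the 984 peaks within 10 kb of a start it was 0.486 (0.456 to 0.516). All 3 intervals contain 0.5, so no difference in strength was detected. Tags per region had a median of 30 in both the intronic regions and the other regions. Scores of at least 100 were reached by 28 intronic peaks (5.09%, 3.41 to 7.27%) and by 4.78% of the other peaks. Intervals here treat peaks as separate and cover counting error only, although maxima of 1 region share their tags.

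The background score was 0 in 174 intronic peaks (31.6%, 27.8 to 35.7%), against 30.9% of the other peaks. In 530 intronic peaks (96.4%, 94.4 to 97.8%) the ChIP score was at least 10 times the background score, against 94.1% of the others (92.9 to 95.1%). That difference was 2.30 percentage points (0.151 to 4.01, 95% Newcombe interval). The highest background relative to the ChIP score was 32.5%, in Zfp423, followed by 27.3% in Mid1, 25.8% in Ick, 19.2% in 1 maximum of Wwox and 18.8% in Znrf1. ChIP scores of those 5 peaks were between 33.46 and 53.26, below the scores of the strongest peaks. The sources used here do not give the material behind the background score.

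**Figure D2:**
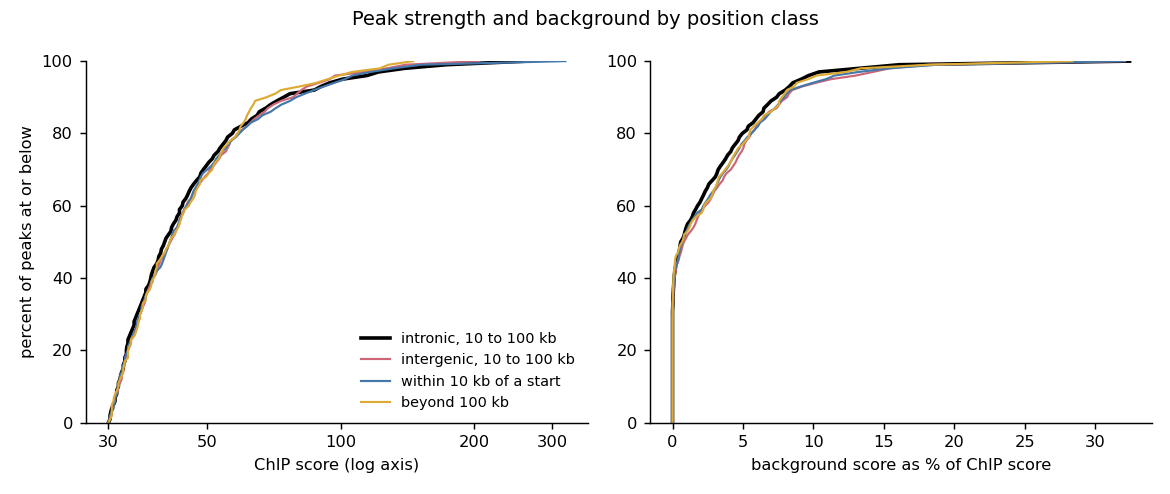
Cumulative percent of peaks by ChIP score (left, log axis) and by background score as a percent of ChIP score (right) for intronic peaks 10 to 100 kb from starts, intergenic peaks at the same distance, peaks within 10 kb of a start and peaks beyond 100 kb. The curves of ChIP score lie close together, with medians of 40.15 for the intronic, 41.36 for the intergenic and 41.22 for the near-start peaks.

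The homeodomain core was present in 205 of the 550 windows of 200 bp (37.3%, 33.2 to 41.5%). In the 1100 flanking windows of the same peaks, centred 1 kb to either side, it was present in 6.73% (5.32 to 8.37%), and in all 2541641 tiles of 200 bp of intronic sequence that meets the distance rule it was present in 7.25%. The difference between the peaks and their own flanks was 30.5 percentage points (26.2 to 34.8). The scrambled word ATATTA, of the same base composition, moved the other way, at 4.18% (2.67 to 6.21%) in peaks against 9.64% (7.96 to 11.5%) in flanks. It still holds the half-site ATTA, so it is not a control without half-sites. It also differs between strands, where TAATTA reads the same on both, and was in 13.5% of tiles. GC content was higher in the peaks, with a mean of 47.7% against 44.5% in the flanks and 42.1% in the tiles; its part in these shares was not tested. Among the other peaks of the list TAATTA reached 33.5%, a difference of 3.82 points (-0.672 to 8.43) whose interval contains 0. With 1 peak per region the difference was 4.71 points (0.0223 to 9.52). In every other setting compared the interval contained 0. Examples are 1.99 points (-3.29 to 7.54) over 20 kb from a start and 3.91 (-2.61 to 10.6) among the 50% of peaks with the highest scores. Against the intergenic peaks alone the difference was 3.38 points (-2.04 to 8.80).

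TAATTA matches gathered at the maximum. In 20 bp bins, the share of intronic peaks with a match was 9.27% in the bin that starts at the maximum and 7.27% in the bin before it. It was 1.27% in the bin from 100 to 80 bp before the maximum and 1.45% in the bin from 80 to 100 bp after it. Within the full 500 bp window, 251 intronic peaks held a match, and 165 of these (65.7%) had it within 50 bp of the maximum. The median distance of the nearest match was 34.5 bp (28.5 to 40.5), against 31.5 bp (28.5 to 33.5) in the other peaks.

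**Figure D3:**
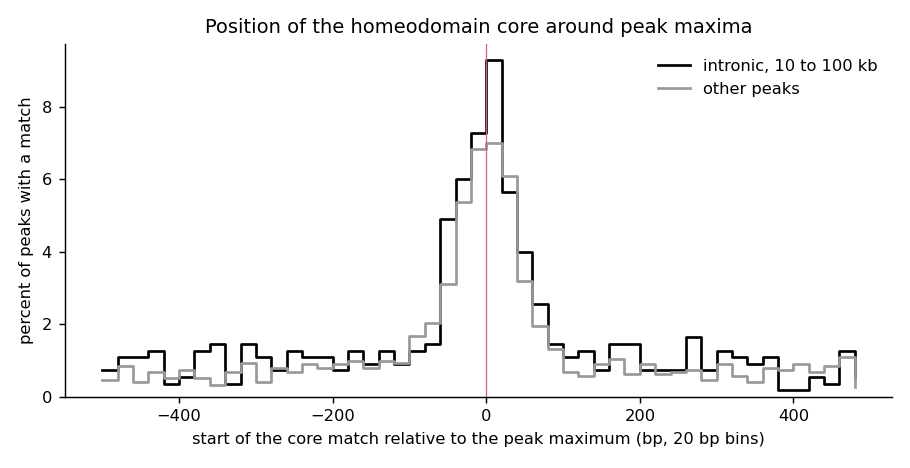
Percent of peaks with a core match that starts in each 20 bp bin around the peak maximum (red line), for the 550 intronic peaks and the 1904 other peaks. The share of intronic peaks reaches 9.27% in the bin that starts at the maximum and is 1.45% or lower in the bins from 80 to 100 bp away on each side.

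Half-sites alone were nearly universal, since ATTA was present in 512 intronic peaks (93.1%, 90.6 to 95.1%) against 66.9% of flanks. The remaining 38 peaks (6.91%) held no half-site in their 200 bp. Among all 2080 distinct words of 6 bases, counted after the values were seen, TAATTA had the largest excess over the flanks. It was followed by AATTAA (43.3% against 14.5% of flanks), by AATTAG (37.6% against 9.09%) and by CAATTA (32.5% against 8.55%). Of the first 10 words, 8 held a half-site. The other 2 were AGCAGG, at 30.5% against 16.3% of flanks, and CCTCCC, at 31.3% against 17.2%. CAATTA, which was in the Wwp2, Slc35f3 and Chat stretches above, was found in 120 of the 345 intronic peaks without TAATTA (34.8%, 29.8 to 40.1%). In flanks without TAATTA it was found in 8.19% (6.58 to 10.0%). Together, TAATTA or CAATTA was present in 325 intronic peaks (59.1%, 54.9 to 63.2%) and in 14.4% of flanks (12.3 to 16.6%).

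Pairs of half-sites differed in frequency with their spacing. ATTA facing TAAT with 3 bases between was present in 30 intronic peaks (5.45%, 3.71 to 7.70%), including those in Dmrt1 and Sh3bp4, against 1.09% of flanks (0.565 to 1.90%). The same pair with 2 bases between was in 3.64% (2.24 to 5.56%) against 0.545% of flanks, and with 10 between in 3.09% (1.81 to 4.90%) against 0.364%. With 5 between it was in 0.545% (0.113 to 1.59%), against 0.818% of flanks. With 6 between it was in 2.55% (1.40 to 4.23%) against 0.636% of flanks. The spacing set as a control, 7 between, was in 1.64% (0.751 to 3.08%) against 0.818% of flanks. Its difference from the flanks was 0.818 points (-0.376 to 2.01), an interval that contains 0. The control exceeded its share in the intergenic peaks, 0.307%, by 1.33 points (0.214 to 2.79). TAAT followed by ATTA, the opposed order, was most frequent with 2 bases between, at 4.91% (3.26 to 7.06%) against 0.636% of flanks. Half-sites in the same direction with 5 bases between were in 44 intronic peaks (8.0%, 5.87 to 10.6%) against 1.45% of flanks (0.834 to 2.35%). That share exceeded the one in the other peaks, 5.46%, by 2.54 points (0.260 to 5.27). The opposed pair with 2 between exceeded its 2.57% in the other peaks by 2.34 points (0.618 to 4.56). Of 39 pairs of this kind, compared after the values were seen and unadjusted for their number, 5 had an interval above 0 and none below. The other 3 were facing half-sites 4 and 12 apart and opposed ones 9 apart, higher by 1.13, 1.11 and 1.01 points. Against the intergenic peaks alone, same-direction half-sites 5 apart differed by 1.87 points, with an interval containing 0 (-1.03 to 4.89). Same-direction half-sites with no base between were in 8.18% (6.03 to 10.8%), and all 45 such peaks hold TAATTA, since the 2 half-sites then spell it.

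These arrangements overlap. Of the 30 peaks with facing half-sites 3 apart, 18 held a TAATTA core 3 bases from a further half-site, as in Lmo7. Such a stretch also counts as same-direction half-sites 5 apart. That compound arrangement was in 3.27% of intronic peaks (1.95 to 5.12%), in 2.10% of the other peaks (1.50 to 2.85%) and in 0.273% of flanks (0.0563 to 0.795%). The share of peaks with facing half-sites 3 apart was 10.1% (5.66 to 16.4%) in the 138 intronic peaks with the highest scores. It was 5.80%, 3.65% and 2.19% (0.454 to 6.27%) in the next 138, 137 and 137 peaks in order of score. For TAATTA the 4 score classes gave 44.9% (36.5 to 53.6%), 37.7%, 29.9% (22.4 to 38.3%) and 36.5%, so that share did not fall steadily with the score. In both cases the intervals of the highest and the lowest class overlap, which does not show that their shares are equal. The difference between score classes was not tested.

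**Figure D4:**
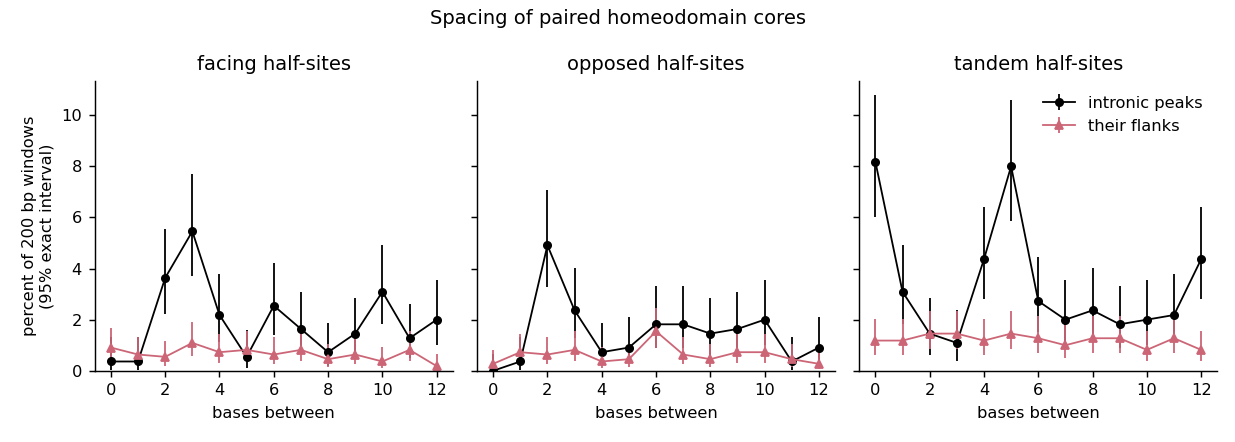
Percent of 200 bp windows with a pair of half-sites by the number of bases between them, for the 550 intronic peaks (black) and their 1100 flanking windows (red), with 95% exact intervals. Facing half-sites are ATTA then TAAT, opposed ones TAAT then ATTA, and tandem ones 2 copies in the same direction; the highest shares are 5.45% for facing half-sites 3 apart, 4.91% for opposed ones 2 apart, and 8.18% and 8.0% for tandem ones 0 and 5 apart.

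Sites of other factor families were mixed. The octamer ATGCAAAT, bound by POU factors, was in 4.36% of intronic peaks (2.82 to 6.42%) against 1.73% of flanks (1.04 to 2.68%). The TEAD word GGAATG was in 17.8% (14.7 to 21.3%) against 10.5% (8.71 to 12.4%), and the AP-1 word TGANTCA in 10.4% (7.94 to 13.2%) against 6.09% (4.75 to 7.67%). The SOX word ATTGTT, at 13.5% against 11.8%, and the E-box CAGATG, at 15.5% against 14.5%, had differences from the flanks of 1.64 points (-1.86 to 5.14) and 0.909 points (-2.73 to 4.55), whose intervals contain 0. The Esrrb word TCAAGGTCA was in 7 peaks (1.27%, 0.513 to 2.60%) against 0.455% of flanks. That difference was 0.818 points (-0.204 to 1.84), and its interval contains 0. The repeat of 2 AGGTCA words 5 bases apart, a site of retinoic acid receptors, was in 1 peak. The E-box CAGCTG was in 11.1% of intronic peaks (8.59 to 14.0%) and 14.8% of the other peaks, a difference of -3.67 points (-6.56 to -0.393). That interval contained 0 among the 50% of peaks with the highest scores (-1.91 points, -6.12 to 3.11) and with protein-coding genes alone (-3.16 points, -6.11 to 0.206). None of the octamer, TEAD, AP-1, SOX or Esrrb shares differed from those of the other peaks beyond its interval.

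The series names STAT3 in its title, and the STAT word was therefore counted as well. The relaxed site TTCNNNGAA was in 28 intronic peaks (5.09%, 3.41 to 7.27%), in 6.45% of flanks (5.08 to 8.07%) and in 7.00% of all intronic tiles. A control with TTC and GAA 6 bases apart was in 4.91% (3.26 to 7.06%). The strict site TTCCNGGAA was in 4 peaks (0.727%, 0.198 to 1.85%) and in 0.909% of flanks. Neither the relaxed nor the strict site was more frequent in the peaks than in the flanks, beyond counting error. A total of 11 intronic peaks held both TAATTA and the relaxed site, 5.37% of those with TAATTA (2.71 to 9.40%), against 4.93% of those without (2.90 to 7.77%). The strongest such pairings were in Pdzd2 and in Cacnb4, a calcium channel subunit gene, whose peak scored 81.90 over a background score of 0.0700. The Cacnb4 stretch is shown on the plus strand of mm9 with the STAT word in capitals, 16.0 bp after the maximum. The TAATTA of this peak lies outside the printed stretch.
Cacnb4, chr2:52327621-52327681: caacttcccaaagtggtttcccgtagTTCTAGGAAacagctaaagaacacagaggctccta

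**Figure D5:**
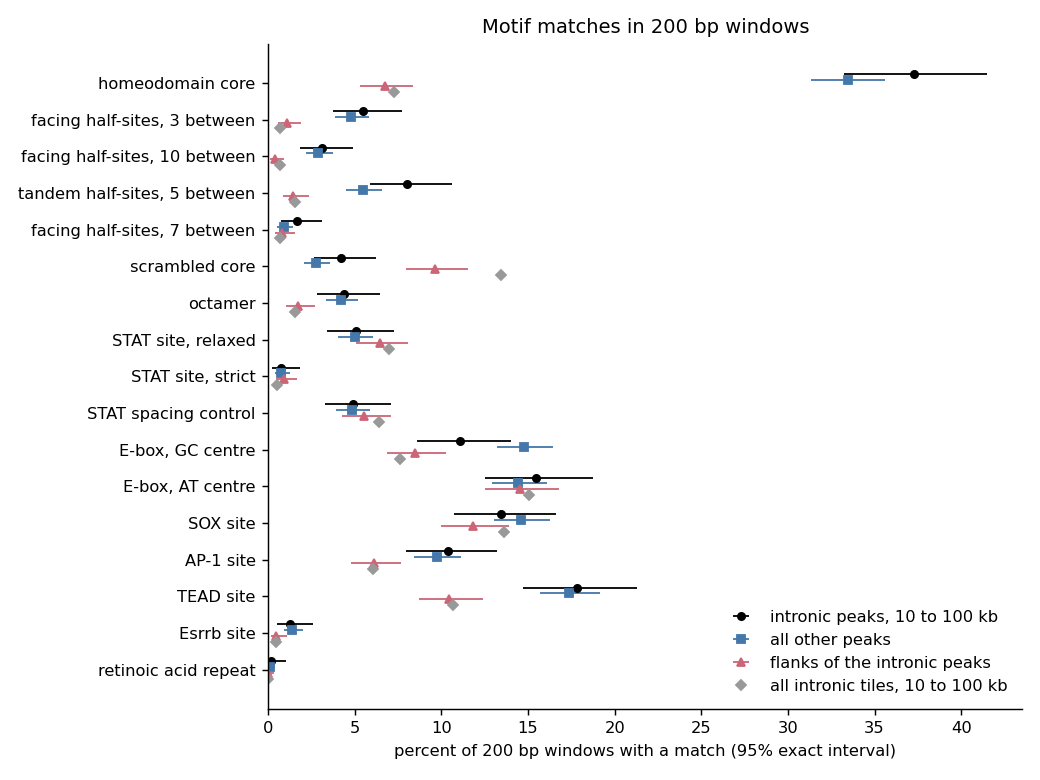
Percent of 200 bp windows with at least 1 match to each word or pair in intronic peaks 10 to 100 kb from starts, all other peaks, the flanks of the intronic peaks (95% exact intervals for these 3) and all intronic tiles at that distance, where the E-boxes with GC and AT centres are CAGCTG and CAGATG. The core stands at 37.3% in the intronic peaks against 6.73% in their flanks, while the relaxed STAT site stands at 5.09% against 6.45%.

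Intronic sequence 10 to 100 kb from starts covered 508 Mb, 19.9% of the known bases of the genome. The 22.4% share of peaks was 1.13 times that share of sequence, or 1.08 peaks per Mb against 0.929 for the other peaks over the rest of the genome. Distances to the nearest start ran from 10.1 to 98.4 kb, with a median of 26.2 kb (24.1 to 29.6). Between 10 and 20 kb there were 203 peaks (36.9%, 32.9 to 41.1%, where 33.2% of this sequence lies), between 20 and 50 kb 212 (38.5% against 42.8%) and between 50 and 100 kb 135 (24.5% against 24.1%). Just inside the lower bound were peaks in Actn4 at 10.08 kb with a ChIP score of 43.36, Edem1 at 10.15 kb with 33.72, and Abcg2 at 10.18 kb with 32.39. Just outside it were Wdfy2 at 9.91 kb with 32.92, Abat at 9.84 kb with 35.60, and Gm16889 at 9.78 kb with 35.33. At the upper bound Smyd3 at 98.4 kb with 40.42, Enox1 at 98.1 kb with 37.74 and Tnr at 97.8 kb with 65.57 were inside. Gm13849 at 100.5 kb with 125.80, A330033J07Rik at 101.03 kb with 35.33 and Lrfn2 at 101.5 kb with 30.24 were outside.

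Host genes were mostly protein-coding, for 527 peaks (95.8%), with 15 peaks in lincRNA genes, 7 in genes of processed transcripts and 1 in a pseudogene. First introns of the longest host transcript held 145 peaks (26.4%, 22.7 to 30.3%), where 24% of the eligible sequence lies. Peaks were spread along the hosts, with 119 in the first 25% of the gene body and 146, 143 and 142 in the next 3 stretches of 25%. The nearest start belonged to a gene that contains the peak in 334 cases (60.7%, 56.5 to 64.8%). In the other 216, the nearer start was that of a protein-coding gene in 78 cases and of a gene of another type in 138, among them 35 processed transcripts, 20 snRNA, 17 miRNA and 17 rRNA genes. When only protein-coding genes were considered, the host's own start was nearest for 81.3% (77.7 to 84.5%) of the 524 peaks that then met the rule, 480 of which were among the 550.

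The 550 peaks fell in 430 host genes, 4.16% of the 10326 genes that hold any eligible sequence. Host genes had a median length of 149 kb, against 47.7 kb for all genes with such sequence. Genes with over 200 kb of eligible sequence hosted a peak in 19.0% of cases (15.6 to 22.8%) and genes with under 10 kb in 0.636% (0.394 to 0.970%). Per Mb the order was different, with 1.59 peaks (1.01 to 2.39) in genes with under 10 kb of it, 1.17 (0.971 to 1.40) at 10 to 50 kb, 0.955 (0.783 to 1.15) at 50 to 100 kb, 1.42 (1.21 to 1.66) at 100 to 200 kb and 0.833 (0.700 to 0.984) over 200 kb. A single peak was found in 346 hosts, 2 in 59, 3 in 17 and 4 or more in 8.

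Wwox, which encodes an oxidoreductase at a fragile site and spans 913 kb, held the most, with 6 maxima in 3 regions and ChIP scores from 29.98 to 65.04. Ccdc109a, which encodes the pore of the mitochondrial calcium uniporter, held 5 maxima in 4 regions, with scores from 32.12 to 45.23. The 4 maxima of Stac, the gene of an adaptor protein of muscle and neurons, lay in 1 region of 90 tags and scored 66.38, 50.32, 34.53 and 30.24. Those of Nedd4l, which encodes a ubiquitin ligase of ion channels, lay in 4 separate regions and scored 69.59, 50.05, 47.64 and 38.54. Accn1, the gene of an acid-sensing ion channel, held 4 in 3 regions, at 69.05, 67.18, 47.64 and 31.85. Agap1, which encodes a regulator of Arf GTPases, held 4 in 2 regions with a highest score of 76.82, Mcc 4 in 2 regions with 88.59, and Fam19a1 4 in 3 regions with 35.60. The maxima of Nedd4l were thus all separate, while those of Stac shared 1 region.

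Intronic maxima had another maximum close by more often than the intergenic ones at the same distance. Another peak of the list lay within 10 kb of 132 intronic peaks (24%, 20.5 to 27.8%) and of 17.6% of intergenic ones, a difference of 6.36 points (1.77 to 11.0). Against peaks within 10 kb of a start the difference was 1.64 points (-2.69 to 6.14), and against all other peaks it was 3.62 points (-0.241 to 7.75). When each region kept its strongest maximum, 11.4% of intronic peaks (8.80 to 14.5%) had a neighbour within 10 kb. That share was not computed for intergenic regions, so a difference in separate neighbouring regions was not tested. Of the 507 regions, 39 had 2 or more maxima (7.69%, 5.53 to 10.4%), against 24 of 626 intergenic regions (3.83%, 2.47 to 5.65%). The difference between regions, computed after the values were seen, was 3.86 points (1.15 to 6.79). It was 1.62 points against near-start regions, with an interval that contains 0 (-1.04 to 4.60).

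Over all genes with eligible sequence 4.16% hosted a peak, at 1.08 peaks per Mb, and the lists are given beside those values. Of 11 cholinergic genes with eligible sequence, 1 was a host, Chat (7.07 peaks per Mb, 0.857 to 25.5, on 2 peaks). Chat held 2 maxima in 1 region of 84 tags in its intron 8, with ChIP scores of 87.25 and 47.37 and background scores of 0 and 1.53. The nearest start, 21.4 kb from the stronger maximum, was that of the lincRNA gene Gm2990, and the nearest start of Chat itself lay 22.2 kb from it. Among 15 motor neuron transcription factor genes with eligible sequence, 2 were hosts. Zfhx3, a homeodomain and zinc-finger factor, held peaks of 115.09 and 51.92, 45.3 kb and 88.5 kb from its start, and Ebf1, a helix-loop-helix factor of neuronal differentiation, held 1 of 45.50. That list had 1.91 peaks per Mb (0.393 to 5.57). Of 17 genes of motor columns and pools, the hosts were Gfra3, a receptor for a GDNF-family ligand, at 76.82, Esrrb at 56.21 and 44.16, and Foxp2 at 47.64, or 1.80 per Mb (0.490 to 4.60). The intervals of the motor neuron factor, cholinergic and motor column lists all contain 1.08. Isl1 held no peak of this kind, although 2 peaks with scores of 61.56 and 39.61 lay in its gene body, 8.0 and 6.44 kb from its start. Both were outside the introns of its longest transcript. Isl1 has 0.0910 kb of eligible sequence. Lhx3 and Mnx1 have none, so neither could host such a peak. Lifr, Il6st and Stat3, with 28.4, 17.2 and 11.2 kb of eligible sequence, hosted none.

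Axon guidance genes hosted 12 peaks in 10 of the 43 genes with eligible sequence. These were semaphorins (Sema3a, Sema6d), receptors (Nrp2, Unc5b, Robo1, Plxnc1), Slit3, and Eph receptors and an ephrin (Epha7, Ephb1, Efna5). The strongest were in Nrp2 at 70.66, Sema3a at 51.92 and Slit3 at 45.50. Per Mb the list had 2.08 peaks (1.08 to 3.64, 95% Poisson interval), against 1.08 over all genes, and the median score of its peaks was 36.67, against 40.15 for all 550. Cell adhesion genes hosted 14 peaks in 12 of 42 genes, led by Nfasc and Dscaml1 at 96.35, which is 0.901 per Mb (0.492 to 1.51). Ion channel genes hosted 10 peaks in 6 of 41, led by Cacnb4, Accn1 and Kcnj6 at 62.36, which is 1.2 per Mb (0.575 to 2.20). Synapse and vesicle genes hosted 5 peaks in 4 of 48, namely Dmxl2, Grik4 at 45.23, Gabbr2 at 44.16 and Syt1 at 32.92, or 0.421 per Mb (0.137 to 0.984). Of these 4 lists, only the synapse list had an interval wholly below the density over all genes. The other 3 intervals contained it. The 48 synapse genes held 11.9 Mb of eligible sequence. Genes with over 200 kb of it each had 0.833 peaks per Mb (0.700 to 0.984), a value inside the synapse interval. A difference from genes of like length was not tested. As a share of genes, 8.33% of the synapse list were hosts (2.32 to 19.98%), against 4.16% over all genes.

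In the signalling lists, shares of hosts with eligible sequence were 5.13% (0.627 to 17.3%) for the Wnt, FGF and BMP pathways, 9.09% (0.230 to 41.3%) for Notch and 6.67% (0.169 to 31.9%) for retinoic acid, and all 3 intervals contain the 4.16% over all genes. Fzd3, a Wnt receptor, at 65.04 and Tle4, a corepressor, at 33.19 and 32.65 were the hosts among 39 genes of the Wnt, FGF and BMP pathways. Maml2, a Notch coactivator, at 36.40 was the 1 host among 11 Notch genes, and Ncoa1, a nuclear receptor coactivator, at 38.54 the 1 host among 15 retinoic acid genes. None of the 17 JAK-STAT genes with eligible sequence was a host, where their 0.532 Mb allow up to 6.93 peaks per Mb (upper 95% Poisson limit). Pim1, a kinase gene induced by STAT3, was nevertheless the nearest start of 2 intronic peaks inside another gene, Gm16912, with scores of 57.81 and 32.65, at 23.2 kb and 17.8 kb.

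Lists of other cell types and states differed in density, on small counts. Pluripotency genes hosted 3 peaks in 2 of 9 genes, with 2 in Esrrb, an orphan nuclear receptor of naive stem cells, and 1 in Jarid2, a Polycomb cofactor, at 32.39. This was 10.9 per Mb (2.24 to 31.8), on 0.276 Mb of eligible sequence, an interval that lies above the 1.08 over all genes. The same 2 Esrrb peaks were also counted in the motor column list. The gene lists were chosen with earlier results of these data known, so this interval is not an independent test of an excess. Intervals of the lists are also unadjusted for the number of lists. Glial genes hosted 3 peaks in 2 of 12, in Qk at 62.90 and Nfib with a highest score of 49.78, or 3.08 per Mb (0.635 to 8.99). Spinal interneuron transcription factors (9 genes with eligible sequence), blood (7), endoderm and liver (11), housekeeping (3) and skeletal muscle genes (9) hosted none. Of these, only the skeletal muscle list had over 2 Mb of eligible sequence, at 2.57 Mb, which allows up to 1.44 peaks per Mb.

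The X chromosome held 3 of the 550 peaks, where its share of eligible sequence corresponds to 28.4, a ratio of 0.106 (0.0218 to 0.309, 95% Poisson interval). One of the 3 was the peak in Mid1 with the second highest relative background. Chromosome 14, with Chat and Lmo7, held 41 against 23.7 (ratio 1.73, 1.24 to 2.35). Chromosomes 17 (ratio 1.53, 1.03 to 2.18) and 10 (1.41, 1.01 to 1.91) also had intervals above 1, and chromosomes 5 (0.650, 0.407 to 0.983) and 7 (0.422, 0.218 to 0.738) had intervals below 1. The ratios are descriptions over 21 chromosomes, unadjusted for their number. Of the other 1904 peaks, 31 lay on the X chromosome, 145 on chromosome 14, the most of any, and 141 on chromosome 5. No ratio to sequence was computed for those peaks. Whether the ratios are particular to the intronic peaks was therefore not tested.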

How the data were processed

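Flag ChIP-seq was done in 4 libraries (2 with Dox, 2 without). Tags were aligned with BWA 0.5.8a to mm9, per the submitters' processing notes. The caller of the peaks, the threshold used, how scores were scaled and whether libraries were pooled are steps not given in the sources used here. A single peak list was deposited by the authors, in which ChIP and background values are of the unit score and ChIP tags are whole-number counts per region, per the file headers. Of 2455 peaks, 1 mitochondrial peak was left out. Each peak has a 500 bp window.

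Positions were compared with GENCODE release M1 (37273 genes) on the NCBIM37 genome, the same build. The host of a peak is the longest protein-coding gene that contains its maximum, or a gene of another type where there is none. Words were counted on both strands in 200 bp centred on the maximum, in flanks of 200 bp centred 1 kb to each side, and in all 200 bp tiles that meet the position rule. Shares have exact binomial intervals, their differences Newcombe intervals, counts Poisson intervals, all at 95% and for counting error only. Differences between peaks and their own flanks instead have 95% normal intervals of the mean difference per peak. No p-value was computed. Computations used Python 3.11.15, numpy 2.4.6, scipy 1.17.1 and pandas 2.3.3 and were tested on simulated data.

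The set of peaks, the 19 gene lists and the words were chosen with earlier results of these data known. Of 574 list symbols, 568 matched directly and 3 by an older symbol. Genes were named by rule: the 12 strongest peaks, up to 3 hosts per list, hosts of 4 or more peaks, the 3 nearest to each distance bound on either side, the 5 with the highest relative background, and Chat, Isl1, Lhx3, Mnx1, Lifr, Il6st, Stat3 and Esrrb. Some items that this rule selects, and 1 of the lists, are not reported here. Genes named beside printed sequences, as nearer starts, or as further hosts of the axon guidance and synapse lists, and Pim1, fall outside that rule and were named after their values were seen. The 6-base words, the half-site spacings and the counts per region were also added after the values were seen. Alternatives were the 50% of peaks with the highest scores, 1 peak per region, protein-coding genes alone, a lower bound of 20 kb, background under 10% of the ChIP score, other windows, the strict STAT site, any transcript of the host, neighbours within 50 kb, and tags as the strength.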

Additional observations from a re-analysis of the deposited data

How the results depend on the processing

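Of 48 alternative values of 8 results, 35 stayed within the interval or spread of the reported value and 13 moved beyond it. With a lower bound of 20 kb, intronic peaks were 14.1% of the list, the host's own start was nearest for 53.0% and the first intron held 21.9%. With protein-coding genes alone the host's own start was nearest for 81.3%, and with any transcript of the host the first intron held 37.3%. TAATTA was in 28.9% of 100 bp windows and 45.6% of 500 bp windows. The relaxed STAT site was in 2.36% and 13.3% of those windows, and the strict site in 0.727% of 200 bp windows. A neighbour within 10 kb was found for 13.4% among the 50% of peaks with the highest scores and for 11.4% with 1 peak per region, and one within 50 kb for 39.3%. These settings changed the window, distance, word, genes, intron definition or set of peaks counted. Why each value moved was not tested. The outranking probability of the ChIP score, 0.486 as reported, ran from 0.483 to 0.511. It crossed 0.5 among the 50% of peaks with the highest scores (0.504), over 20 kb from a start (0.511) and with tags as the strength (0.511), and each of these intervals contains 0.5.

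The list gives no value per library, so neither depth nor spread between libraries is known, and leaving out a library was not possible. No paired analysis was possible because the list has no column for any library. The share of repeat-masked sequence was not computed, because the genome used here has no lower-case bases. An exact match to a word is a description of the letters, and the score threshold of the list, whose lowest score was 29.98, limits which weak peaks were counted.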
